A study of Mus musculus and Homo sapiens with 180 samples.

Results

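HuDEP-2 cells, an immortalised human erythroid progenitor line, were driven to differentiate after treatment with SGC0946, a small-molecule inhibitor of the histone H3 lysine 79 methyltransferase DOT1L, and their mRNA was compared with that of SGC0946-treated cells kept in expansion medium. The comparison took the 3 libraries labelled as SGC0946-treated and differentiated (replicates 1 to 3) against the 3 labelled as SGC0946-treated and undifferentiated, so 6 of the 180 samples of the series. A further 6 HuDEP-2 libraries, of the same design but with the solvent DMSO in place of the inhibitor, share no library with the comparison and were used to ask where the response after SGC0946 differed. All cells came from a single line that carries doxycycline-inducible viral oncogenes and no engineered change that the labels name. The cells were pretreated for 7 days with SGC0946 at 5 µM or with DMSO. The undifferentiated groups were kept in expansion medium with stem cell factor, erythropoietin, dexamethasone and doxycycline, and the differentiated groups were moved to a medium with human and bovine serum, holo-transferrin, insulin, heparin, erythropoietin, doxycycline, an interleukin and less stem cell factor, for which no dexamethasone is listed. The labels give a second period of 72 h to all 12 libraries, whereas the figure legend of the study places the RNA at day 2, and neither source says whether the inhibitor stayed on the cells during that period. The study reasoned that DOT1L inhibition may prime cells for later repression once they receive a differentiation cue. It reported that some genes lowered in erythroid maturation were repressed more strongly after inhibitor pretreatment, and that CD49d was lost earlier. The genes of that subset were not examined as a set here.

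Erythroid progenitors that leave the expansion phase stop dividing after a few rounds, shut down ribosome and progenitor programmes, and build haemoglobin from α-like and β-like globin chains, haem and iron. The α-like genes lie in a cluster on chromosome 16 and the β-like genes in a cluster on chromosome 11, where embryonic (HBE1), fetal (HBG1, HBG2) and adult (HBD, HBB) genes are used in turn during development. The transcription factor GATA2 is lost as GATA1 takes over, and KLF1 and NF-E2 act with GATA1 at erythroid promoters. DOT1L places a mark found on the bodies of transcribed genes, and its inhibition is best known for lowering the targets of MLL fusion proteins in leukaemia.

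Sequencing was 3′-directed, so each value is a count of reads near the 3′ end of a gene, given here as CPM (counts scaled to a common library size, with the TMM method of edgeR). The 6 SGC0946 libraries held 5583064 to 8049407 counts and the 6 DMSO libraries 8154178 to 13681475, so low genes were measured less precisely after SGC0946. At these depths 3 counts corresponded to 0.373 to 0.537 CPM in the SGC0946 libraries, a floor that covers counting error only. Genes used by every cell, such as LDHA and RPS18, were listed at 0 in all 6 libraries, so a listed 0 is not read here as absent expression. The 15 erythroid markers against which the label was checked were all measured, and 12 of them rose with differentiation and none fell. Of the other cell types, the lymphoid markers CD3E and MS4A1, the granulocyte markers MPO and ELANE and the platelet markers PF4 and PPBP were listed at 0 in the 6 libraries. Other members of the marker lists were counted in the undifferentiated libraries, such as F2RL3 (24.7, 31.1 and 25.3 CPM) and LTF (15, 11 and 10 counts). The listed zeros therefore do not show that a lineage was absent. Nothing in the labels says that the 3 replicates were separate cultures, so the p-values measure the spread between these samples, which may be technical.

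To let the regulatory letters be seen beside the values, the 150 bases upstream of the annotated start are given for 2 genes that rose and whose stretch holds at least 1 of the 3 erythroid motifs searched (GRCh38, GENCODE canonical transcripts, 5′ to 3′ on the gene's strand). Capitals mark AGATAA, the letters searched for GATA factors, on either strand. They also mark CCACCC, searched for KLF factors. The last motif, TGAGTCA, was searched for NF-E2. In ALAS2 the run of capitals that follows the middle of the stretch holds 2 overlapping matches to CCACCC on the other strand.
HBD (chr11:5234484-5234633, minus strand): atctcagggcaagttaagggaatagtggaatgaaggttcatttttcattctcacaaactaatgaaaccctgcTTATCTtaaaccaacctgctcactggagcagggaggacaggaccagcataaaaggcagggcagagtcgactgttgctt
ALAS2 (chrX:55030978-55031127, minus strand): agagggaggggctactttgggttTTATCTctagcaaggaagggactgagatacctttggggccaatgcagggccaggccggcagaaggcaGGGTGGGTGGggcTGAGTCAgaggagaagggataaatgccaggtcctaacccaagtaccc
HBD held 1 match, to the GATA motif, and ALAS2 held all 3 motifs. Of the stretches of the 10 globin genes, 1 held the GATA motif, 4 the KLF motif and none the NF-E2 motif. Over the stretches of all 20020 protein-coding genes, 3.30% held the GATA motif, 24.2% the KLF motif and 1.99% the NF-E2 motif. Among the 651 genes with a stretch that rose after SGC0946 the shares were 4.61%, 25.3% and 2.61%, against 1.67%, 23.7% and 1.23% of the 9087 tested genes with one. These shares are descriptions of letters in a window, and a match is not a bound site.

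After SGC0946, differentiation was accompanied by rises in 9 of 10 globin genes, 6 of 9 haem synthesis genes, 15 of 31 red cell membrane genes and 14 of 21 targets of the amino acid stress factor ATF4. In the other direction, 16 of 40 ribosome biogenesis genes fell, and 8 of 21 glycolysis and hypoxia genes fell while 2 rose. Of 9848 genes tested, 1301 changed (13.2%), with 725 higher (7.36%) and 576 lower (5.85%) at an adjusted p under 0.05 in edgeR's quasi-likelihood test over all 12 libraries. Past a 2-fold change, 317 genes were higher (3.22%) and 125 lower (1.27%). In the fit with the replicate number as a block, 3223 genes changed (32.7%), 1530 higher (15.5%) and 1693 lower (17.2%), and all 1301 of the first set were among them with the same sign. The block used the pairing of same-numbered libraries, which the first fit left out. Without TMM scaling the split turned to 553 higher and 870 lower of 1423, so the balance of higher and lower genes rests on the scaling. The count fell to 806 without the undifferentiated replicate 3 and to 794 without the differentiated replicate 3. In bulk RNA, fewer cells of a kind and less RNA per cell cannot be told apart, which holds for every value that follows. Groups that did not overlap are reported for many genes named because they were called, so the separation adds no support to a call. The share of all genes with such groups was not counted.

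The globin genes rose nearly as a whole. Together they took 3.5%, 3.45% and 3.79% of all counts in the undifferentiated libraries and 8.78%, 7.93% and 8.83% in the differentiated ones, so the 2 groups did not overlap and the share rose by 4.94 percentage points on average. All 10 globin genes passed the filter on low counts, and 9 of them rose, with a median log2 fold change of 1.70 against 0.017 over all genes tested.

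Among the β-like genes, HBB (chr11:5225464-5229395), the adult chain, stood at 22260.5, 17274 and 20882 CPM in the undifferentiated libraries and 66641, 49480.4 and 59853 CPM in the differentiated ones (edgeR log2 fold change 1.54 ± 0.17, adjusted p = 2.68e-05). The lowest differentiated library lay above the highest undifferentiated one by more than 2-fold. HBD (chr11:5232678-5243657), the minor adult chain, rose more steeply, with 228, 166 and 218 CPM in the undifferentiated libraries and 2159, 1735 and 2136 CPM in the differentiated ones (edgeR log2 fold change 3.30 ± 0.17, adjusted p = 9.87e-09). The fetal genes followed: HBG1 (chr11:5248269-5249857) went from 137, 99.4 and 137 to 719, 528 and 633 CPM (edgeR log2 fold change 2.33 ± 0.18, adjusted p = 5.12e-07). HBG2 went from 219, 149 and 156 to 1226, 826 and 859 CPM (edgeR log2 fold change 2.47 ± 0.19, adjusted p = 8.59e-07). The last 300 bases of the HBG1 and HBG2 mRNAs differ by 5 edits, so how reads were split between those genes is uncertain and they are best read as a pair. HBE1, the embryonic chain, was near the limit of detection, from 0.898, 1.23 and 1.13 to 4.19, 2.87 and 4.77 CPM (edgeR log2 fold change 1.85 ± 0.42, adjusted p = 0.00849). The separation was complete for each of the 5 genes, with every differentiated library above every undifferentiated one.

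The make-up of the β-like counts shifted with differentiation. Within the sum of HBB, HBD, HBG1, HBG2 and HBE1, the fetal pair made up 1.44% ± 0.0994 (SD, n = 3) before and 2.56% ± 0.200 after, and HBD made up 0.984% ± 0.0425 before and 3.24% ± 0.165 after. In the DMSO libraries the fetal pair held 0.322% ± 0.0103 and 0.351% ± 0.0305, and HBD 0.524% ± 0.0423 and 0.839% ± 0.0504. The fetal share was therefore larger in the undifferentiated SGC0946 libraries than in the differentiated DMSO ones. No test was run on these shares, since an exact permutation test of 3 against 3 libraries cannot go below p = 0.10.

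Among the α-like genes, HBA1 went from 2921, 3305 and 3723 to 5349, 5577 and 6284 CPM (edgeR log2 fold change 0.79 ± 0.13, adjusted p = 0.00073). HBA2 went from 7577, 10989 and 12229 to 14405, 19743 and 21749 CPM (edgeR log2 fold change 0.86 ± 0.21, adjusted p = 0.0123). The call on HBA2 was lost without the undifferentiated replicate 1 (adjusted p = 0.0542), the differentiated replicate 2 (0.0520) or the differentiated replicate 3 (0.0687). The last 300 bases of these mRNAs differ by 21 edits. HBZ, the embryonic ζ chain, went from 12.1, 13.9 and 13.4 to 56.5, 84.6 and 100.2 CPM (edgeR log2 fold change 2.61 ± 0.24, adjusted p = 3.21e-06). HBM, the µ chain, went from 247, 343 and 472 to 693, 1032 and 1337 CPM (edgeR log2 fold change 1.53 ± 0.28, adjusted p = 0.00212). HBQ1, the θ chain, was the globin that did not pass, from 207, 262 and 348 to 339.9, 413 and 483 CPM (edgeR log2 fold change 0.60 ± 0.20, adjusted p = 0.0595), and its groups overlapped, although it passed with the replicate block (adjusted p = 3.36e-14). The ratio of β-like to HBA1 and HBA2 counts was 2.18, 1.24 and 1.34 before and 3.58, 2.08 and 2.26 after. Replicate 1 stood apart in this ratio in both groups, and in both DMSO groups as well (2.05 and 2.45).

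Of the 9 haem synthesis genes, 6 rose and none fell, with a median log2 fold change of 0.48. ALAS2, the erythroid form of the first and rate-limiting enzyme, went from 262, 410.1 and 333 to 701, 1064 and 889 CPM (edgeR log2 fold change 1.40 ± 0.20, adjusted p = 0.000278). ALAS1, the form used in all tissues, went from 21.7, 19.4 and 21.7 to 52.7, 49.5 and 46.3 CPM (edgeR log2 fold change 1.24 ± 0.14, adjusted p = 2.88e-05). FECH, which inserts iron into the ring, went from 102, 120.4 and 112 to 182, 192 and 160.1 CPM (edgeR log2 fold change 0.67 ± 0.12, adjusted p = 0.00138). CPOX went from 36.4, 28 and 29.6 to 52, 47.9 and 49.7 CPM (edgeR log2 fold change 0.67 ± 0.15, adjusted p = 0.0066). In each of these 4 genes all differentiated libraries lay above all undifferentiated ones. ALAD, a further member, had a log2 fold change of 0.18 and did not pass, but all 9 genes passed with the replicate block.

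Iron handling gave 6 rises among 22 genes tested and no fall, where 7.36% of all genes rose and 5.85% fell. With the replicate block it gave 10 rises and 2 falls, where 15.5% and 17.2% of all genes did so. The mitochondrial iron importer SLC25A37 went from 332, 381 and 333 to 858, 945 and 915 CPM (edgeR log2 fold change 1.38 ± 0.11, adjusted p = 1.31e-06), with no overlap between the groups. The transferrin receptor TFRC went from 584, 542 and 513 to 813, 836 and 839.8 CPM (edgeR log2 fold change 0.60 ± 0.10, adjusted p = 0.00109). The ferritin light chain FTL went from 19000.4, 16625 and 19558 to 34099, 29599 and 32853 CPM (edgeR log2 fold change 0.81 ± 0.12, adjusted p = 0.000396). For FTH1, the heavy chain, the table held fewer counts, from 55.9, 116 and 97.2 to 133, 241 and 225 CPM (edgeR log2 fold change 1.15 ± 0.30, adjusted p = 0.0194), and its call was lost without the undifferentiated replicates 1 or 3 or the differentiated replicates 2 or 3 (adjusted p from 0.0527 to 0.0842).

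Of the 31 red cell membrane genes tested, 15 rose and 2 fell, with a median of 0.44. AQP1 (chr7:30911853-30925517), the water channel of the red cell, showed the largest rise among called genes above 10 CPM, with 1.8, 2.32 and 2.88 CPM in the undifferentiated libraries and 29.8, 40.7 and 37.7 CPM in the differentiated ones (edgeR log2 fold change 3.93 ± 0.23, adjusted p = 3.28e-08). SLC4A1, the anion exchanger band 3, went from 43.1, 42.7 and 45 to 153, 144 and 149 CPM (edgeR log2 fold change 1.77 ± 0.11, adjusted p = 6.26e-08). GYPB, which encodes a minor surface sialoglycoprotein of red cells, went from 82.8, 70.6 and 83.4 to 159.8, 174 and 205 CPM (edgeR log2 fold change 1.19 ± 0.12, adjusted p = 1.79e-05). None of these 3 genes had overlapping groups. Of the genes outside the list, KCNN4, the calcium-activated potassium channel of the red cell, went from 6.59, 9.42 and 7.26 to 70.8, 88.4 and 95.9 CPM (edgeR log2 fold change 3.45 ± 0.18, adjusted p = 9.87e-09). CD49d, a flow cytometry marker in the study that is lost on maturation, is encoded by ITGA4, which stood at 81.9, 75.5 and 74.6 CPM in the undifferentiated libraries and 67.1, 62.2 and 61.2 CPM in the differentiated ones (edgeR log2 fold change -0.28 ± 0.11, adjusted p = 0.105). The 3 differentiated values of ITGA4 lay below the 3 undifferentiated ones, and the gene passed with the replicate block (edgeR adjusted p = 0.00539) and without TMM scaling (0.0422), but not as fitted.

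Late-maturation and clearance genes gave 8 rises and 1 fall among 35 tested, where 7.36% of all genes rose and 5.85% fell. With the replicate block they gave 16 and 3, against 15.5% and 17.2% of all genes. AHSP, the chaperone of free α-globin, went from 1555, 1786 and 1684 to 2548, 3006 and 2647 CPM (edgeR log2 fold change 0.71 ± 0.11, adjusted p = 0.000553). UBE2L6, a ubiquitin-like conjugating enzyme, went from 201, 197 and 196 to 409, 405 and 382 CPM (edgeR log2 fold change 1.01 ± 0.10, adjusted p = 1.12e-05). The glycine transporter SLC6A9 went from 1.8, 3.41 and 2.5 to 5.76, 9.5 and 7.6 CPM (edgeR log2 fold change 1.55 ± 0.34, adjusted p = 0.00709). Every differentiated library exceeded every undifferentiated one in these 3 genes.

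Of 30 erythroid transcription factors tested, 6 rose and 1, GATA2, fell, where 7.36% of all genes rose and 5.85% fell. With the replicate block 12 rose, against 15.5% of all genes. GATA2, which is used in early progenitors, went from 64.8, 82 and 67.6 to 14.6, 16.5 and 19.1 CPM (edgeR log2 fold change -2.09 ± 0.14, adjusted p = 8.63e-08). FOXO3, which drives late erythroid and stress genes, went from 28.6, 33.4 and 23.9 to 73.9, 66.9 and 58.2 CPM (edgeR log2 fold change 1.21 ± 0.16, adjusted p = 0.000138). MAFG, a partner of NF-E2, went from 6.89, 6.83 and 8.14 to 11.2, 14 and 18 CPM (edgeR log2 fold change 0.98 ± 0.19, adjusted p = 0.0036). The master regulator GATA1 went from 262, 405 and 365 to 319, 458 and 393 CPM (edgeR log2 fold change 0.18 ± 0.19, adjusted p = 0.592), and passed with the replicate block (edgeR adjusted p = 0.00258). KLF1 went from 1361, 1741 and 1604 to 1514, 1774 and 1685 CPM (edgeR log2 fold change 0.08 ± 0.13, adjusted p = 0.753). The sign of the KLF1 value turned to -0.00824 without TMM scaling and to -0.019 without the undifferentiated replicate 1. ZBTB7A, the factor that the study used as its example gene, stood at 13.9, 16.2 and 13.4 CPM in the undifferentiated libraries and 18.3, 18.7 and 18.3 CPM in the differentiated ones (edgeR log2 fold change 0.34 ± 0.18, adjusted p = 0.232), with the differentiated libraries above the undifferentiated ones.

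The genes outside the erythroid lists that rose most included NMU, which encodes the peptide neuromedin U and went from 19.2, 11.9 and 20.9 to 216, 132 and 182 CPM (edgeR log2 fold change 3.35 ± 0.22, adjusted p = 1.16e-07). ANGPTL4, a lipase inhibitor, went from 2.7, 2.59 and 2.5 to 15.2, 19.9 and 22.3 CPM (edgeR log2 fold change 2.88 ± 0.33, adjusted p = 3.9e-05). PHOSPHO1, a phosphatase of the red cell lineage, went from 3.14, 5.6 and 5.13 to 23.4, 31.6 and 27.9 CPM (edgeR log2 fold change 2.56 ± 0.21, adjusted p = 1.31e-06). APOL6 and SQOR had log2 fold changes of 2.81 ± 0.32 and 2.51 ± 0.21. In all 5, chosen among the largest called rises, every differentiated library stood above every undifferentiated one.

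ATF4 is the transcription factor that cells induce when amino acids are short or when haem is lacking, and its targets import amino acids and charge tRNAs. Of 21 target genes tested, 14 rose, none fell, and the median log2 fold change was 0.88. The replicate block gave 16 rises and 2 falls among them, where 15.5% of all genes rose and 17.2% fell. NUPR1, a stress-induced chromatin protein, went from 6.44, 4.23 and 4.01 to 44.6, 51.6 and 54.4 CPM (edgeR log2 fold change 3.37 ± 0.23, adjusted p = 1.3e-07). CHAC1, which degrades glutathione, went from 10.2, 13.1 and 16.2 to 40.5, 58.8 and 55.8 CPM (edgeR log2 fold change 1.97 ± 0.23, adjusted p = 4.65e-05). The cystine transporter SLC7A11 went from 3.74, 2.87 and 2.76 to 8.72, 7.71 and 10.1 CPM (edgeR log2 fold change 1.51 ± 0.29, adjusted p = 0.00292). The amino acid transporter chain SLC3A2 went from 189, 214 and 239 to 347, 373 and 404 CPM (edgeR log2 fold change 0.81 ± 0.13, adjusted p = 0.00073). The tryptophan tRNA synthetase WARS1 went from 142, 147 and 152 to 282, 311 and 268 CPM (edgeR log2 fold change 0.96 ± 0.10, adjusted p = 1.88e-05). The groups did not overlap in any of the 5. ATF4 itself stood at a log2 fold change of 0.39 ± 0.14 (edgeR adjusted p = 0.0702), and passed with the replicate block (3.48e-05).

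Differentiated cells had left a medium with dexamethasone, and targets of the glucocorticoid receptor were examined for that reason. Of 19 tested, 7 rose and none fell, and 11 rose and 2 fell with the replicate block. Over all genes 7.36% rose and 5.85% fell, and 15.5% and 17.2% with the block. The receptor's classical target TSC22D3 went from 84.3, 96.5 and 80.5 to 199.9, 191 and 193 CPM (edgeR log2 fold change 1.16 ± 0.11, adjusted p = 4.57e-06). FKBP5 went from 227, 200.3 and 214 to 260.4, 243 and 222 CPM (edgeR log2 fold change 0.18 ± 0.11, adjusted p = 0.315), and passed with the block (edgeR adjusted p = 0.0178). MT2A, a metallothionein, rose from 27.6, 30.7 and 27.9 to 79.2, 70.5 and 81.8 CPM (edgeR log2 fold change 1.42 ± 0.14, adjusted p = 8.89e-06). DDIT4, which also belongs to the ATF4 list, went from 56.2, 74.3 and 73.3 to 131, 169 and 174 CPM (edgeR log2 fold change 1.22 ± 0.19, adjusted p = 0.00043). Among 15 genes that respond to erythropoietin through STAT5, 2 rose and 1 fell, against 13.2% of all genes called in either direction. With the block 4 rose and 2 fell, against 32.7% of all genes. ERFE, the hormone erythroferrone, went from 13.2, 15.3 and 15.5 to 31, 57.9 and 43 CPM (edgeR log2 fold change 1.58 ± 0.20, adjusted p = 0.000106).

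Of 40 ribosome biogenesis genes tested 16 fell and none rose, the median log2 fold change was -0.38, and 29 fell with the replicate block. NCL, nucleolin, went from 1841, 1738 and 1573 to 1009.8, 955 and 956 CPM (edgeR log2 fold change -0.82 ± 0.12, adjusted p = 0.000264). The processing factor RRP1B went from 85.8, 78.5 and 60.2 to 42.6, 33.4 and 35.6 CPM (edgeR log2 fold change -1.01 ± 0.14, adjusted p = 0.00026). NOP14, a further one, went from 81.2, 84.5 and 89.8 to 38, 41.8 and 50.2 CPM (edgeR log2 fold change -0.97 ± 0.15, adjusted p = 0.000384). In these 3 genes every differentiated library lay below every undifferentiated one. The genes for the ribosomal proteins themselves gave 1 rise and 1 fall among 79 tested. With the replicate block 16 of them rose and 32 fell, where 15.5% of all genes rose and 17.2% fell. Their share of all counts was 18.1% to 19.2% before and 17.6% to 18.5% after.

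Glycolysis and hypoxia genes gave 8 falls and 2 rises among 21 tested. ENO1, an enolase, went from 1517, 1725 and 1729 to 901, 988 and 964 CPM (edgeR log2 fold change -0.80 ± 0.11, adjusted p = 0.000219). PKM, a pyruvate kinase, went from 241, 337 and 321 to 131, 156 and 152 CPM (edgeR log2 fold change -1.03 ± 0.19, adjusted p = 0.00194). GAPDH went from 5332, 7836 and 6514 to 3543, 4799.9 and 4119 CPM (edgeR log2 fold change -0.66 ± 0.17, adjusted p = 0.0194), a call that was lost without the undifferentiated replicates 2 or 3 or the differentiated replicates 1 or 3 (adjusted p from 0.0532 to 0.106). VEGFA was 1 of the 2 that rose, from 3.89, 3.0 and 3.26 to 6.98, 8.79 and 8.19 CPM (edgeR log2 fold change 1.24 ± 0.28, adjusted p = 0.00853).

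Against 13.2% of all genes called in either direction, of 35 S phase genes 4 rose and 1 fell, and of 35 G2 and mitosis genes 3 rose and 1 fell, with medians of 0.14 and 0.12. With the replicate block 10 rose and 1 fell in the first list, and 10 rose and 4 fell in the second. With that block 32.7% of all genes were called, 15.5% higher and 17.2% lower. The kinase gene AURKA fell from 130.3, 122 and 122 to 90, 95.4 and 91.4 CPM (edgeR log2 fold change -0.43 ± 0.10, adjusted p = 0.00981). NEK2 rose from 17.5, 17.1 and 15.4 to 27.2, 27.3 and 27.3 CPM (edgeR log2 fold change 0.71 ± 0.14, adjusted p = 0.00283). Of the cyclins and inhibitors, CCND1, the G1 cyclin D1, went from 59.1, 63.9 and 63.2 to 24.2, 26.4 and 24.9 CPM (edgeR log2 fold change -1.30 ± 0.11, adjusted p = 1.36e-06). BTG2, an antiproliferative gene, went from 3.29, 4.78 and 2.38 to 11.3, 17.2 and 12.4 CPM (edgeR log2 fold change 1.97 ± 0.27, adjusted p = 0.000161). Both had groups that were fully apart.

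Progenitor and surface genes gave 5 falls and 2 rises among 19 tested, where 5.85% of all genes fell and 7.36% rose. With the replicate block they gave 8 falls and 3 rises, against 17.2% and 15.5% of all genes. The summed level of the list went the other way, from between 2691 and 2880.3 CPM to between 4177 and 4296 CPM without TMM scaling. That sum includes APOC1, a high member of the list whose rise is given below, so it does not describe the typical member. PRSS57, a protease of myeloid progenitors, went from 7.34, 7.78 and 9.89 to 0.698, 2.69 and 0.894 CPM (edgeR log2 fold change -2.57 ± 0.39, adjusted p = 0.000431). LIN28B, a fetal RNA-binding protein, went from 5.84, 4.78 and 4.76 to 1.22, 1.43 and 1.79 CPM (edgeR log2 fold change -1.77 ± 0.44, adjusted p = 0.0134). APOC1, an apolipoprotein, rose with no overlap, from 412, 361 and 432 to 2335, 2024 and 2312 CPM (edgeR log2 fold change 2.47 ± 0.13, adjusted p = 9.87e-09). The largest fall among called genes above 10 CPM was that of RHEX (chr1:206053173-206102449), a regulator of erythropoietin signalling in human erythroid precursors, with 109, 62.8 and 77.2 CPM in the undifferentiated libraries and 8.2, 7.53 and 8.94 CPM in the differentiated ones (edgeR log2 fold change -3.33 ± 0.22, adjusted p = 8.63e-08). CD33, a myeloid surface receptor, went from 13, 10.5 and 7.26 to 1.4, 2.69 and 1.04 CPM (edgeR log2 fold change -2.60 ± 0.48, adjusted p = 0.00202). FABP5, a fatty acid carrier, went from 74.1, 47.6 and 59.7 to 26.5, 16.7 and 21.7 CPM (edgeR log2 fold change -1.48 ± 0.22, adjusted p = 0.000396). Further falls among the 12 that the naming rule gave were those of LTBP2 (-2.16 ± 0.25), STAR (-2.02 ± 0.32), C12orf75 (-1.80 ± 0.16), SLC39A10 (-1.62 ± 0.27), KLRG2 (-1.47 ± 0.23) and HS6ST1 (-1.46 ± 0.25), given as log2 fold changes ± SE.

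Markers of neighbouring lineages were examined in the same libraries. Of 20 mast cell, basophil and eosinophil markers 6 were tested, of which 3 fell and none rose, while 2 rose and 3 fell with the replicate block. The summed level of the list went from between 718 and 1310 CPM to between 486 and 926 CPM without TMM scaling. In the DMSO libraries the same sum went from between 691 and 1404 CPM to between 234 and 485 CPM. PRG2, an eosinophil granule protein, went from 312, 549.8 and 515 to 86, 161 and 141 CPM (edgeR log2 fold change -1.83 ± 0.30, adjusted p = 0.000787). The other members called were GATA2 and CPA3, a mast cell protease with 32 counts in the 3 undifferentiated libraries and 0 in the 3 differentiated ones. The 2 that rose with the block encode mast cell tryptases and are named after their values were seen: TPSAB1 went from 110.1, 186 and 187 to 139, 268 and 225 CPM (edgeR log2 fold change 0.39 ± 0.31, adjusted p = 0.456, with the block 3.15e-06). TPSB2 went from 188, 403 and 339 to 249, 469.8 and 388 CPM (edgeR log2 fold change 0.25 ± 0.34, adjusted p = 0.688, with the block 9.35e-05), with a sign that turned without the undifferentiated replicate 1 (-0.013). These near-identical genes may share reads, so the split between them is uncertain. Of 20 megakaryocyte markers 4 were tested and 2 fell. ITGA2B went from 5.54, 7.92 and 8.39 to 2.27, 3.05 and 2.23 CPM (edgeR log2 fold change -1.54 ± 0.25, adjusted p = 0.00073). The thrombin receptor F2RL3 went from 24.7, 31.1 and 25.3 to 10.3, 8.07 and 8.94 CPM (edgeR log2 fold change -1.57 ± 0.18, adjusted p = 4.05e-05). The summed megakaryocyte list went from between 35.7 and 45.9 CPM to between 15.8 and 16.6 CPM. Of 24 monocyte and granulocyte markers 6 were tested and 2 fell, CEBPE, whose call did not hold in 4 of the 6 fits with a single library dropped (adjusted p from 0.0706 to 0.103), and CEBPA, with 61 counts before and 2 after. The summed list stood at 40.3 to 52.8 CPM before and 43.2 to 47.5 CPM after. With the block 1 rose and 3 fell, and the rise was that of FCGR1A, a myeloid Fc receptor named after its value was seen, from 30.5, 25.3 and 18.7 to 33.1, 35.3 and 34.9 CPM (edgeR log2 fold change 0.48 ± 0.16, adjusted p = 0.0579, with the block 0.00132). The part of these cells or markers in the erythroid results was not tested.

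Of 35 genes of DOT1L and Polycomb complexes tested, 2 rose and 1 fell, against 13.2% of all genes called in either direction. With the replicate block 5 rose and 1 fell, where 32.7% of all genes were called. DOT1L itself went from 13.5, 15.8 and 12.3 to 11, 14.3 and 14.1 CPM (edgeR log2 fold change -0.07 ± 0.24, adjusted p = 0.881), with a sign that turned without the undifferentiated replicate 2 (0.033) or the differentiated replicate 1 (0.039). JARID2, a subunit of Polycomb repressive complex 2, rose from 29.5, 27.7 and 25.4 to 46.7, 44.5 and 45.3 CPM (edgeR log2 fold change 0.72 ± 0.14, adjusted p = 0.0023). RNF2, a ubiquitin ligase of Polycomb repressive complex 1, fell from 10.3, 13.7 and 12.1 to 7.5, 6.81 and 6.7 CPM (edgeR log2 fold change -0.78 ± 0.18, adjusted p = 0.00952). BCOR, the scaffold of a variant form of that complex, was the remaining call, from 4.34, 5.6 and 4.01 to 6.8, 8.25 and 8.49 CPM (edgeR log2 fold change 0.76 ± 0.24, adjusted p = 0.0438), and it was lost without the undifferentiated replicates 1 or 3 or the differentiated replicates 2 or 3 (adjusted p from 0.106 to 0.152).

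**Figure D1:**
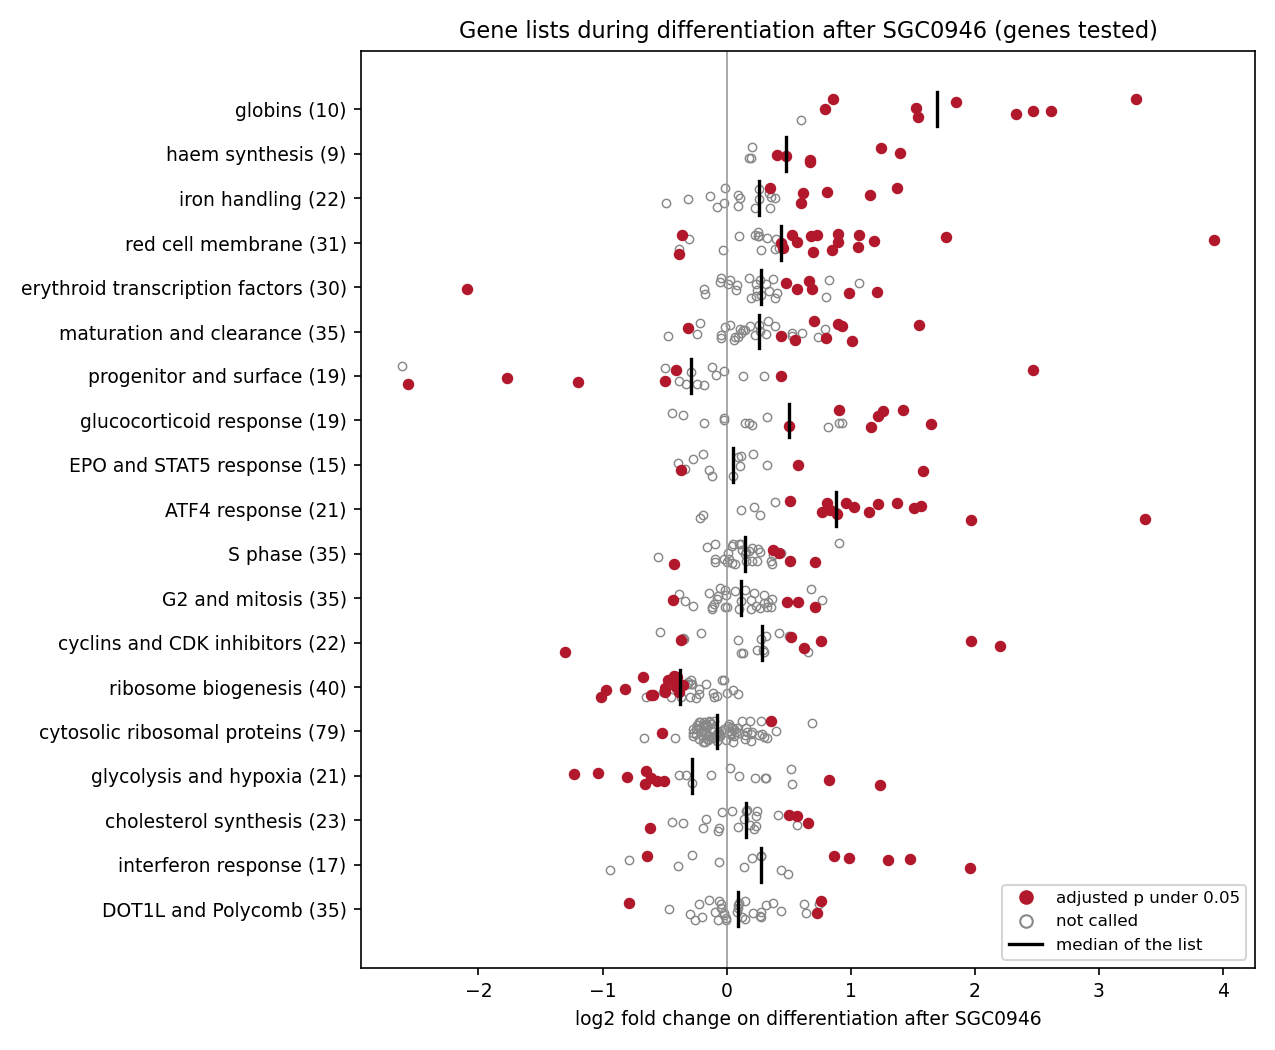
Each row is a gene list with the number of its genes tested in brackets, and the x axis gives the log2 fold change of each gene on differentiation after SGC0946. Filled red points passed an adjusted p of 0.05, open points did not, and black bars are list medians, from -0.38 for ribosome biogenesis to 1.70 for the globins.

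The response after SGC0946 was next set beside that after DMSO, where 1548 of the same 9848 genes changed (15.7%), 800 higher (8.12%) and 748 lower (7.6%). With the replicate block 3622 changed (36.8%), 1832 higher (18.6%) and 1790 lower (18.2%). Of the 725 genes that rose after SGC0946, 374 also rose after DMSO, which is 51.6% of the first list and 46.8% of the second. Of the 576 that fell, 324 also fell after DMSO, 56.2% and 43.3% of the lists. A gene called in 1 response and not in the other is not thereby shown to differ, so the difference between the responses was tested gene by gene as an interaction term. It passed for 47 genes (0.477%), of which 39 (0.396%) had the higher log2 fold change after SGC0946 and 8 (0.0812%) the lower. At an unadjusted p under 0.05, 920 genes were counted. The replicate block gave 888 genes (9.02%), 387 higher and 501 lower, including all 47 with the same sign, and DESeq2 gave 125.

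The 39 genes with the higher value were mostly genes that differentiation lowered after DMSO. Of them, 20 fell after DMSO and were not called after SGC0946, 11 fell in both, 4 fell after DMSO and rose after SGC0946, 3 rose after SGC0946 alone and 1 rose in both. So 35 of the 39 fell in DMSO cells, where 7.6% of all genes fell, and 24 of those 35 were not called lower after SGC0946 in the fit without the replicate block. A fall after DMSO enters the difference by which the 39 were chosen. That choice favours such counts, so they are a description of the called genes only. A missing call does not show that a gene kept its level. With the block the balance of differences turned to 387 higher and 501 lower, and those genes were not classed.

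LGALS1 (chr22:37675636-37679802), which encodes the carbohydrate-binding protein galectin 1, stood at 656, 621 and 797 CPM in the undifferentiated libraries and 452, 395 and 542 CPM in the differentiated ones after SGC0946. In DMSO cells it went from 672, 649 and 795 to 109.7, 115 and 139 CPM, so the undifferentiated libraries of both pretreatments were close and the differentiated ones were apart (edgeR log2 difference 1.96 ± 0.21, adjusted p = 0.000616). Its own fall after SGC0946 (edgeR log2 fold change -0.58 ± 0.15, adjusted p = 0.015) lost its call without the undifferentiated replicate 3 (adjusted p = 0.0828) or the differentiated replicate 2 (0.0790).

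TIMP1 (chrX:47582408-47586789), an inhibitor of matrix metalloproteinases, stood at 1641, 1776 and 1752 CPM in the undifferentiated libraries and 1712, 1629.6 and 1731 CPM in the differentiated ones, while in DMSO cells it went from 1758, 1930.2 and 1891 to 799.9, 800.2 and 825 CPM (edgeR log2 difference 1.17 ± 0.14, adjusted p = 0.0014). The 3 differentiated DMSO libraries lay below all 9 others. VIM, the intermediate filament vimentin, fell in both, from 103, 94.3 and 89.2 to 54.8, 43 and 43.6 CPM after SGC0946 and from 108, 93.7 and 80.8 to 16.3, 17.2 and 16.1 CPM after DMSO (edgeR log2 difference 1.49 ± 0.19, adjusted p = 0.00147). TPM4, a tropomyosin of the actin cytoskeleton, went from 41.6, 43.1 and 40.3 to 46.2, 41.6 and 45 CPM after SGC0946 and from 51.7, 51.8 and 50.7 to 19.9, 23.8 and 22.9 CPM after DMSO (edgeR log2 difference 1.30 ± 0.16, adjusted p = 0.0014). CAVIN1, a coat protein of caveolae, went from 24.3, 25.8 and 25.9 to 27.7, 30.1 and 25.8 CPM and from 31.6, 28.8 and 23.9 to 10.8, 12.5 and 9.96 CPM (edgeR log2 difference 1.48 ± 0.20, adjusted p = 0.00258). LITAF, a lysosomal membrane protein gene, went from 34.6, 37.9 and 33.1 to 31.6, 30.8 and 31.9 CPM and from 45.6, 45.7 and 43.9 to 19, 18.9 and 18.1 CPM (edgeR log2 difference 1.11 ± 0.16, adjusted p = 0.00345).

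PKM (chr15:72199029-72231819), the glycolytic enzyme already named, stood lower in the DMSO libraries in both states, from 135, 210.4 and 189 to 14.4, 19.4 and 24.4 CPM, and its fall there was the deeper (edgeR log2 difference 2.16 ± 0.27, adjusted p = 0.00147). PALM2AKAP2, an anchor gene for protein kinase A, fell from 12, 10.1 and 8.64 to 4.19, 5.02 and 6.26 CPM after SGC0946 and from 27.2, 18.1 and 16.5 to 1.92, 1.49 and 1.25 CPM after DMSO (edgeR log2 difference 2.75 ± 0.37, adjusted p = 0.00258). Its own call after SGC0946 was lost without the undifferentiated replicate 1 (adjusted p = 0.0556) or the differentiated replicates 1 (0.0636) or 2 (0.0551). F2RL3, named among the megakaryocyte markers, went from 23.6, 28.8 and 28.7 to 3.55, 2.24 and 2.34 CPM after DMSO (edgeR log2 difference 1.75 ± 0.27, adjusted p = 0.00595). STAT5A, which carries the erythropoietin signal and is named after its value was seen, went from 40.6, 39.5 and 35.2 to 45, 50 and 40.7 CPM after SGC0946 and from 50.3, 46.6 and 47.9 to 25.4, 30.2 and 30.6 CPM after DMSO (edgeR log2 difference 0.98 ± 0.17, adjusted p = 0.015). The call on STAT5A was lost without the SGC0946 undifferentiated replicate 3 (adjusted p = 0.0662).

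The genes of the smaller classes are named here after their values were seen. DYSF, EPAS1, CD52 and ENG rose after SGC0946, with log2 fold changes of 1.14, 1.29, 0.76 and 0.60, and fell after DMSO, with -1.56, -0.88, -0.91 and -0.50. EPAS1 encodes a hypoxia-inducible factor and ENG a receptor of the TGF-β family. NMU, UCA1 and PLIN2 were called after SGC0946 and not after DMSO, although NMU and PLIN2 passed after DMSO with the replicate block (edgeR adjusted p = 0.0205 and 0.00869). The long non-coding RNA UCA1 had log2 fold changes of 0.83 and -0.06. NMU went from 1.99, 1.27 and 0.987 to 2.4, 1.81 and 2.96 CPM in DMSO cells, so its differentiated level after SGC0946 was far above every other library (edgeR log2 difference 2.54 ± 0.46, adjusted p = 0.0194). PLIN2, a coat protein of lipid droplets, went from 673, 631 and 657 to 1345, 1235 and 1378 CPM after SGC0946 and from 482, 497 and 511 to 592, 507 and 544 CPM after DMSO (edgeR log2 difference 0.87 ± 0.15, adjusted p = 0.0101). The long non-coding RNA NEAT1 rose in both, by 1.72 after SGC0946 and 0.73 after DMSO on the log2 scale. Dropping each of the 12 libraries in turn lost the difference 10 times for CD52, 11 for NEAT1, 8 for UCA1, 3 for ENG and 2 for NMU (without the DMSO undifferentiated replicate 1, adjusted p = 0.107, or 2, 0.0607), and never for EPAS1, DYSF and PLIN2. The rises of CD52 and DYSF after SGC0946 were lost in 5 and 3 of the 6 such fits (adjusted p up to 0.180 and 0.0660).

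Of the 8 genes with the lower value, 5 rose after DMSO and were not called after SGC0946, of which PGD rose and APOL4 fell after SGC0946 with the replicate block (edgeR adjusted p = 0.000506 and 0.000129). PGD, an enzyme of the pentose phosphate pathway, went from 164, 179.6 and 168 to 217, 197 and 196 CPM after SGC0946 and from 137, 145 and 141 to 306, 345 and 305 CPM after DMSO (edgeR log2 difference -0.92 ± 0.14, adjusted p = 0.00658). CBX1, the heterochromatin protein HP1β, fell after SGC0946, from 152, 140.5 and 166 to 77.1, 72.3 and 86.2 CPM, and went from 111, 94.8 and 117 to 109, 109.7 and 118 CPM after DMSO (edgeR log2 difference -1.02 ± 0.17, adjusted p = 0.00904). TUBA1A, a tubulin, rose in both, from 118, 149 and 144 to 302, 315 and 324 CPM and from 27.5, 40.6 and 37.8 to 162, 194 and 180.4 CPM (edgeR log2 difference -1.14 ± 0.20, adjusted p = 0.0139), starting from a higher level after SGC0946. Its call on the difference was lost without the SGC0946 undifferentiated replicates 2 or 3 (adjusted p = 0.0600 and 0.0580). A4GALT, PDE6G, APOL4 and NMNAT3 rose after DMSO, with log2 fold changes of 1.48, 1.85, 0.47 and 0.65, against 0.12, 0.33, -0.36 and -0.17 after SGC0946. When each of the 12 libraries was dropped in turn, the difference was lost 9 times for A4GALT, 10 for PDE6G and 11 for APOL4 and NMNAT3, with adjusted p up to 0.136.

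**Figure D2:**
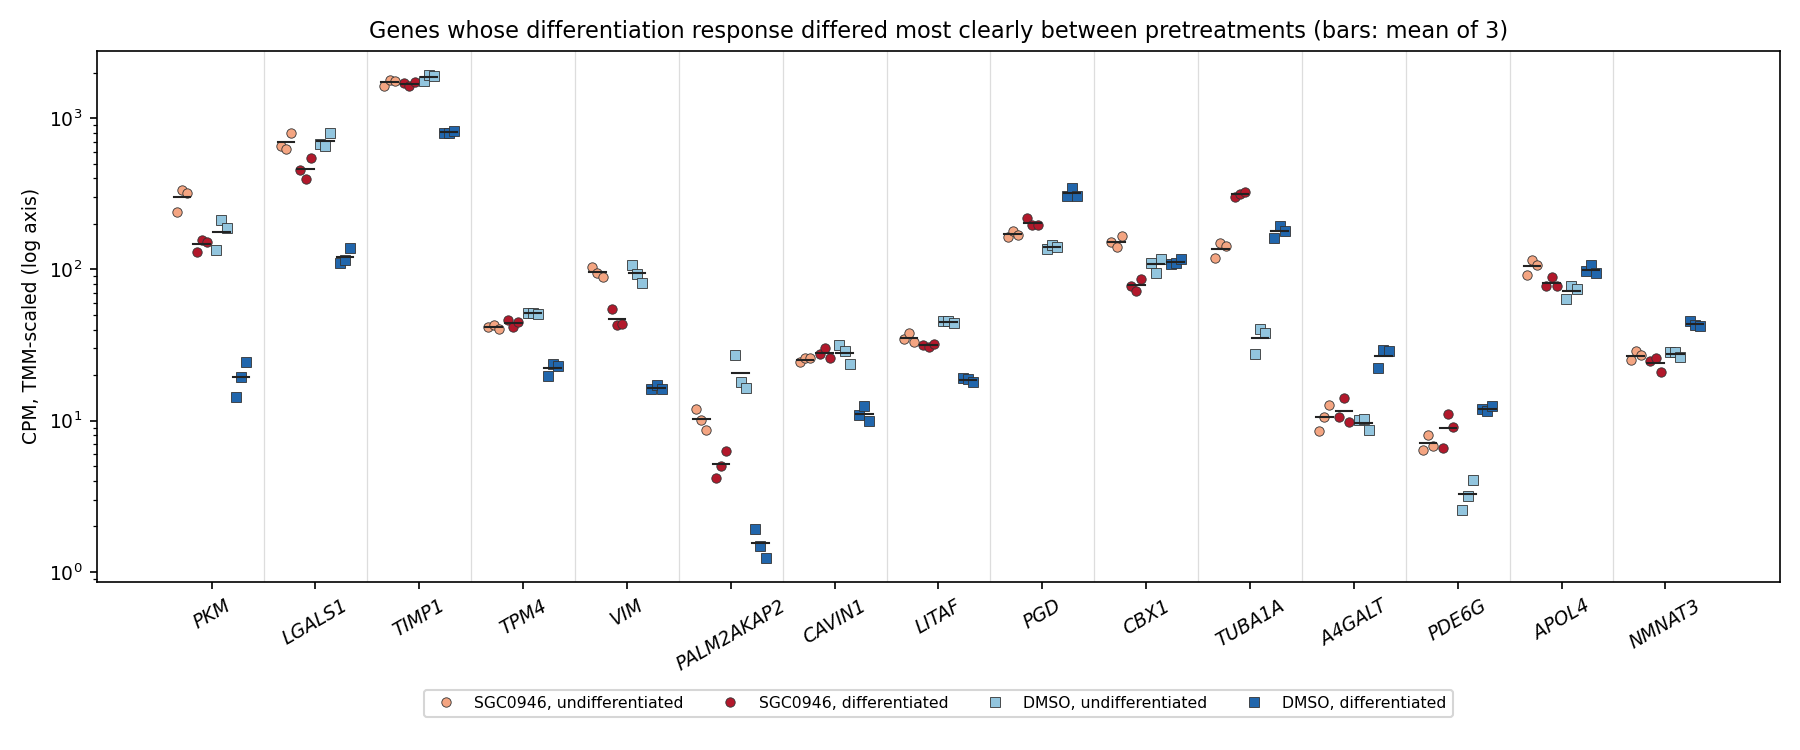
Genes with the smallest adjusted p for the difference between the responses, 8 higher and 7 lower after SGC0946, are on the x axis and TMM-scaled CPM on a log y axis, 1 point per library and a bar at each group mean. In the 8 genes on the left the differentiated DMSO libraries (dark blue squares) are the lowest of the 4 groups, with TIMP1 at 800 to 825 CPM there against 1630 to 1731 CPM in the differentiated SGC0946 libraries.

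Of the globins, HBA1 and HBA2 had log2 fold changes of 1.20 and 1.38 after DMSO against 0.79 and 0.86 after SGC0946, whereas HBD, HBG1 and HBG2 had 2.28, 1.64 and 1.79 against 3.30, 2.33 and 2.47. HBB had 1.59 and 1.54. Without the replicate block none of the globins passed the interaction test, and HBD came nearest (edgeR log2 difference 1.02 ± 0.22, adjusted p = 0.0533). With the replicate block HBD, HBG1, HBG2 and HBQ1 were higher after SGC0946 and HBA1 and HBA2 lower (adjusted p = 4.84e-19, 1.76e-07, 2.13e-08, 0.0228, 2.27e-10 and 2.58e-16, in that order).

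Without the block, none of 9 haem synthesis, 22 iron handling, 31 red cell membrane and 35 maturation genes passed the interaction test, which 0.477% of all genes passed, so a count of 0 is near that share. With the replicate block, where 5.09% of all genes were lower and 3.93% higher after SGC0946, 5 of 9 haem synthesis genes were lower and 1, ALAS1, higher. ALAS2 rose by 2.17 after DMSO and 1.40 after SGC0946 (edgeR adjusted p for the difference 0.373, with the block 2.05e-14). Of the red cell membrane genes 7 were lower and 3 higher with the block, and of 35 maturation and clearance genes 8 were lower and none higher. Of 79 cytosolic ribosomal protein genes 22 were lower and 4 higher. KLF1 and GATA1 were lower too, with log2 fold changes of 0.57 and 0.58 after DMSO against 0.08 and 0.18 after SGC0946 (with the block, edgeR adjusted p = 1.07e-10 and 2.38e-05).

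With the block 7 of 21 ATF4 targets were higher after SGC0946 and none lower, where 3.93% of all genes were higher and 5.09% lower. Without the block no ATF4 target passed the interaction test, which 0.477% of all genes passed. The list medians were 0.88 after SGC0946 and 0.35 after DMSO, against 0.017 and 0.00487 over all genes tested. SLC3A2 went from 167, 212 and 211 to 218, 266 and 249 CPM after DMSO, and NUPR1 from 1.29, 2.09 and 2.78 to 5.37, 8.51 and 7.08 CPM. The difference for NUPR1 did not pass without the block (edgeR log2 difference 1.64 ± 0.36, adjusted p = 0.0603) and did with it (adjusted p = 0.000227). Of 20 mast cell, basophil and eosinophil markers 6 were tested, and 4 of 6 were higher after SGC0946 with the block and none lower. Without the block none of the 6 passed. Among the 4 was PRG2, which went from 149, 304 and 269 to 25.4, 48.4 and 42.4 CPM in DMSO cells. ZBTB7A had a log2 fold change of 0.30 ± 0.17 after DMSO, close to its value after SGC0946 (edgeR log2 difference 0.05 ± 0.25, adjusted p = 0.982).

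**Figure D3:**
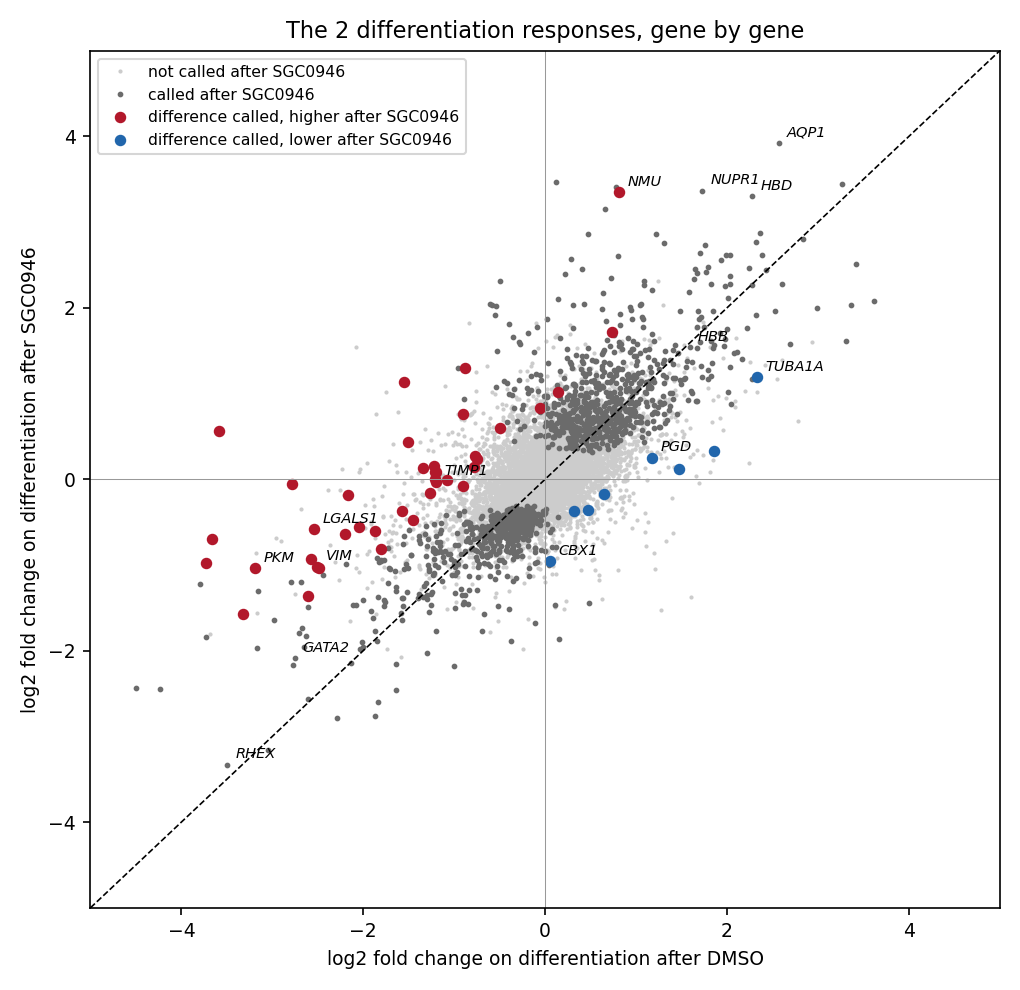
Each point is 1 of the 9801 genes with more than 3 counts in every group, with the log2 fold change on differentiation after DMSO on the x axis and after SGC0946 on the y axis, and the dashed line marks equal responses. Red points, the 39 genes with a higher response after SGC0946, lie mostly at the left, where genes fell after DMSO, and the 8 blue points lie below the line.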

How the data were processed

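HuDEP-2 RNA was sequenced as 3′ Pool-seq libraries. The values used here are the raw gene counts that the authors deposited, produced by STAR 2.7.9a on GRCh38 after trimming with bbmap 38.81. The processing notes also name DESeq2.

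Counts were analysed in R 4.3.3 with edgeR 4.0.16: a gene entered when 2 or more of the 12 libraries reached 2 CPM. Counts were scaled with TMM and tested with the quasi-likelihood F-test over 4 groups, with Benjamini-Hochberg adjustment over 9848 genes. Library totals and the floor of 3 counts are given with the results. The difference between the responses was an interaction term. Alternatives were RLE or no scaling, scaling without globins, other filters, DESeq2 1.42.0, the authors' threshold, a replicate block and leaving out libraries. Same-numbered libraries deviated together (r = 0.398, 0.295 and 0.169 after SGC0946, 0.420, 0.335 and 0.223 after DMSO), so the numbers were taken to pair the samples. The main fit left this pairing out, and the fit with the replicate block used it. Adjusted p-values are those of the main fit unless the block is named. A gene not called there may therefore pass once the pairing is used. On simulated data for differentiation after SGC0946 with 9848 genes, the test recovered 90 of 100 genes changed 4-fold and 64 of 100 changed 2-fold, and called 7 unchanged ones. The simulated libraries held no deviation shared by replicate number, so these figures may not carry over to the real counts.

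Named were ITGA4 and ZBTB7A; called genes with the 12 largest rises and falls above 10 CPM that agreed in sign over the 3 pairs; per list, up to 4 called members with the largest change and up to 4 with the highest level, and every globin; and 8 genes of each direction with the smallest adjusted p for the difference. A subset is described, and some items that the rule names are not reported here. ALAD, ATF4 and DOT1L, and those marked in the text, were named after their values were seen. The genes and lists were chosen with earlier results of these data known. Sequences are from GRCh38 with GENCODE annotation.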

Additional observations from a re-analysis of the deposited data

Results flagged for a closer look

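The log2 fold change on differentiation differed between SGC0946 and DMSO cells in edgeR's interaction test for the 25 genes that follow, given as the SGC0946 minus the DMSO value. It was higher after SGC0946 for PALM2AKAP2 (2.75), DYSF (2.69), NMU (2.54), EPAS1 (2.17), PKM (2.16), LGALS1 (1.96), F2RL3 (1.75), CD52 (1.67), VIM (1.49), CAVIN1 (1.48), TPM4 (1.30), TIMP1 (1.17), LITAF (1.11), ENG (1.1), NEAT1 (0.98), STAT5A (0.98), UCA1 (0.89) and PLIN2 (0.87). It was lower for PDE6G (-1.52), A4GALT (-1.36), TUBA1A (-1.14), CBX1 (-1.02), PGD (-0.92), APOL4 (-0.83) and NMNAT3 (-0.82).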

How the results depend on the processing

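With the replicate number as a block, the genes called rose from 1301 to 3223 after SGC0946, from 1548 to 3622 after DMSO and from 47 to 888 for the difference between the responses, and every call made without the block was kept with its sign. A block within each pretreatment, added after seeing the data, gave 3190, 3591 and 823. The count for the difference was also 121 with no filter on low counts, 125 with DESeq2 and 78 at an adjusted p under 0.1 with a log2 change over 0.5. The causes were not tested.

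Leaving out 1 library gave 794 to 1084 genes after SGC0946, 1039 to 1390 after DMSO and 23 to 44 for the difference. The difference fell to 27 and 23 without the SGC0946 undifferentiated replicates 2 and 3, 26 without the differentiated replicate 3, and 30 and 29 without the DMSO differentiated replicates 2 and 3. Without all 4 libraries numbered 1, added after seeing the data, the counts were 1568, 1793 and 51. Without TMM scaling the DMSO split was 511 higher and 1234 lower of 1745, and the median log2 fold change of all genes after SGC0946 moved from 0.017 to -0.072.

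Among the genes named, signs turned only for genes not called after SGC0946 in the main fit, of which TPSB2 had the largest log2 fold change (0.249). Without TMM scaling, KLF1 had a log2 fold change of -0.00824 and TPM4 of -0.0039. With a filter of 10 CPM in 3 libraries TIMP1 had 0.0055. Leaving out 1 library, KLF1 ran from -0.019 to 0.158, A4GALT from -0.062 to 0.269, TPSB2 from -0.013 to 0.481 and DOT1L from -0.155 to 0.039, and DOT1L had 0.028 without the libraries numbered 1. Low genes were limited by depth, with the floor of 3 counts at up to 0.537 CPM.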
